A study of Mus musculus with 16 samples.

Results

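The genes described here are the machinery by which liver cells make, take up and export cholesterol, together with the SREBP2 system that controls it. The list holds 30 genes, matched by symbol to the 30199 genes of the deposited table, and 29 were found. The libraries are of messenger RNA from the livers of 16 female mice, 5 months old, 4 of each genotype. These were Ncoa5+/-Tip30+/- mice, heterozygous for deletions of both genes, Ncoa5+/- mice, Tip30+/- mice, and wild-type mice with both genes intact. Each library came from a piece of frozen liver of 1 mouse fed a standard diet, and the labels describe the tissue as mainly hepatocytes and name no strain. The Ncoa5 protein works with nuclear receptors, and Tip30, listed as Htatip2 in the table, is a short-chain dehydrogenase. The deletions are heterozygous and the labels do not restrict them to a cell type, so hepatocytes and other liver cells are measured together, and fewer cells of a type cannot be told apart from less RNA per cell. Values are DESeq2-normalized read counts, comparable between livers for 1 gene but not between genes.

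Cholesterol synthesis starts from acetyl-CoA, runs through mevalonate and the isoprenoids to squalene, and ends with the closing and trimming of the sterol ring. When sterols in the endoplasmic reticulum are low, Scap carries SREBP2, the product of Srebf2, to the Golgi, where it is cut to free the transcription factor that enters the nucleus. When sterols are plentiful, the proteins of Insig1 and Insig2 hold Scap back. In liver, nuclear SREBP2 raises the synthesis genes, lipoprotein uptake, Insig1 and Srebf2 itself, so these genes tend to move together with the sterol supply. The genes fall into 4 roles: 5 control genes (Srebf2, Scap, Insig1, Insig2 and Mylip), 8 of the mevalonate and isoprenoid steps, 9 of the sterol ring steps with Tm7sf2 unmatched, and 7 of transport and lipoprotein handling. They do not cover every step, and genes of the other steps were not analysed here.

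Promoters are shown for Srebf2 and for the genes with the smallest unadjusted p between Ncoa5+/-Tip30+/- and wild-type livers. The product of Srebf2 is a transcription factor of the synthesis genes, and Srebf2 messenger RNA was the 1 of the listed genes to differ between genotypes past the threshold. Binding of SREBP2 at the promoters shown was not measured. Each is the RefSeq window of 250 bases before to 50 bases after the gene's start on GRCm38.p6, written 5′ to 3′ along the gene. Capitals mark CCAAT, the box bound by NF-Y, on either strand (ATTGG on the other), and ATCACCCCA, which was searched on both strands after the Srebf2 sequence had been seen. The table held no entry for Scarb1.
Srebf2 (chr15:82147019-82147318, plus strand): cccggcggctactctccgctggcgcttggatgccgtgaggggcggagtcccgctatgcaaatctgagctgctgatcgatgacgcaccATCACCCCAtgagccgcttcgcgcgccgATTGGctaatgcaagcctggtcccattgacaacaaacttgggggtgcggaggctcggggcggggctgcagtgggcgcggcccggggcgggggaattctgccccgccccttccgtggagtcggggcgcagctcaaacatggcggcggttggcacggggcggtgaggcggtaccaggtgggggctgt
Idi1 (chr13:8885356-8885655, plus strand): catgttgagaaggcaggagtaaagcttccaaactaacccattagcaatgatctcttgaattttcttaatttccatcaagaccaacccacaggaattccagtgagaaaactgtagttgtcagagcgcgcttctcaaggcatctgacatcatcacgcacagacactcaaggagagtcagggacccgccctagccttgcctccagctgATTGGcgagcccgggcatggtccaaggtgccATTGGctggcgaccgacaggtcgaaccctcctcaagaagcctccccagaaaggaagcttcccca
Msmo1 (chr8:64733529-64733828, minus strand): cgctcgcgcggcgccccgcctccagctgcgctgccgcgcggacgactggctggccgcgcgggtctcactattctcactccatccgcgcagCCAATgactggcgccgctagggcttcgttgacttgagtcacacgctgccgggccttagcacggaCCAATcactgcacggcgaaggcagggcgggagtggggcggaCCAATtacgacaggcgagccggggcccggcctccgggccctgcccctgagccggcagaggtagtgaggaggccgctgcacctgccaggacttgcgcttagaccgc
Hsd17b7 (chr1:169969156-169969455, minus strand): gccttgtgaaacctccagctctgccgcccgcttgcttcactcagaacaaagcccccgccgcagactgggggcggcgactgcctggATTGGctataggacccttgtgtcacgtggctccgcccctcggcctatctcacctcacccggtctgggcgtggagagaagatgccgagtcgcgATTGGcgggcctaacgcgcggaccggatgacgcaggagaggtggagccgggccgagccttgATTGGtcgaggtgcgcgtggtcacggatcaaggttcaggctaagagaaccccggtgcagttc
Abca1 (chr4:53159846-53160145, minus strand): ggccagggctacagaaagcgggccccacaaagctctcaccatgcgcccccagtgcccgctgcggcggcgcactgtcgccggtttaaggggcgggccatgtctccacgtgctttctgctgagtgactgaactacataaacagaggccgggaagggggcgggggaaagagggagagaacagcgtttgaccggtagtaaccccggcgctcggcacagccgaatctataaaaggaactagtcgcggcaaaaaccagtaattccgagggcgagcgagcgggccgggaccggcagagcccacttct
Srebf2 has 1 CCAAT box on the opposite strand and 1 ATCACCCCA, and no overlap between them. Idi1 has 2 CCAAT boxes, Msmo1 has 3 and Hsd17b7 has 3, while Abca1, an efflux gene, has 0 in this window. Over all 30 promoters found for 24 of the genes, 20 held CCAAT, or 66.7%, against 37.4% of 32851 mouse promoters. At least 2 CCAAT boxes were in 40.0% of the genes' promoters, against 11.7% of all. ATCACCCCA was in 1 of the 30, that of Srebf2, against 0.280% of all. The full 10-letter sterol regulatory element, and a form of it with 1 free base, were in 0 of the 30, against 0.0913% and 0.234% of all. No match says only that these letters are not in this window.

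The libraries held 24740706 to 31987259 reads in Ncoa5+/-Tip30+/- livers, 26262744 to 28895680 in Ncoa5+/- livers, 30574997 to 35978055 in Tip30+/- livers and 26058724 to 37939978 in wild-type livers. Htatip2 followed the labels, at 837 to 1088 in Ncoa5+/-Tip30+/- livers, 2066 to 2910 in Ncoa5+/- livers, 685 to 986 in Tip30+/- livers and 1835 to 2209 in wild-type livers. Ncoa5 did not separate the genotypes, at 369 to 424 in Ncoa5+/-Tip30+/- livers, 339 to 411 in Ncoa5+/- livers, 382 to 450 in Tip30+/- livers and 380 to 480 in wild-type livers, so it checks no label. Of 8 hepatocyte markers all 8 were in the table, and their sum was 1950780 to 2697660 in Ncoa5+/-Tip30+/- livers, 2131150 to 2783690 in Ncoa5+/- livers, 2718420 to 3027540 in Tip30+/- livers and 2128510 to 3059320 in wild-type livers. The 4 adipocyte markers all averaged under 10. The sum of 5 detected lymphocyte markers was 109 to 226 in Ncoa5+/-Tip30+/- livers, 136 to 200 in Ncoa5+/- livers, 33.8 to 100 in Tip30+/- livers and 25.8 to 151 in wild-type livers. The sum of 7 macrophage markers was 5693 to 10771 in Ncoa5+/-Tip30+/- livers, 6835 to 12306 in Ncoa5+/- livers, 6209 to 7807 in Tip30+/- livers and 3083 to 7577 in wild-type livers. That of 5 cholangiocyte markers was 1061 to 2080 in Ncoa5+/-Tip30+/- livers, 1097 to 1594 in Ncoa5+/- livers, 663 to 1659 in Tip30+/- livers and 593 to 913 in wild-type livers. Their part in the results was not tested.

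Libraries also differ in ways that the genotypes do not explain. The labels number each mouse (its mouse tag), and 7 livers have a number of 4300 or more (2 of each genotype except Tip30+/-, with 1) while 9 have a lower one. The labels do not say what the number records. In 4 livers the messenger RNA of Zhx2, a transcriptional repressor, was nearly missing: 13.5 in Ncoa5+/- 1, 8.77 in Ncoa5+/- 4, 19.4 in wild type 1 and 26.3 in wild type 2, against 167 to 438 in the other 12. Both wild-type livers with low Zhx2 are also the wild-type livers with lower numbers, so the 2 features cannot be told apart there. Results are therefore also given within number ranges and without these livers. Without them the wild-type group is 2 livers, both with higher numbers, so that setting also changes the number ranges compared.

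Of the 29 genes, Srebf2 was the 1 with an adjusted p below 0.05 (limma) in Ncoa5+/-Tip30+/- against wild-type livers, where it fell. Across all 15263 genes tested with limma, 2.67% had an adjusted p below 0.05 in this comparison, so 1 of 29 sets the list little apart. Idi1, Insig1, Hsd17b7 and Msmo1 had larger log2 differences, of -0.62, -0.62, -0.60 and -0.59, but larger SE, and did not pass. Srebf2 stood at 2676, 2129, 2527 and 2389 in Ncoa5+/-Tip30+/- livers, 3117, 3309, 2623 and 2438 in Ncoa5+/- livers, 3292, 3224, 2565 and 2817 in Tip30+/- livers, and 3697, 3345, 3595 and 3513 in wild-type livers. All 4 Ncoa5+/-Tip30+/- livers, and all 4 livers of each single heterozygote, lay below the lowest wild-type liver. Means (± SD, n = 4 each) were 2430 ± 233 in Ncoa5+/-Tip30+/- livers, 2872 ± 409 in Ncoa5+/- livers, 2975 ± 344 in Tip30+/- livers and 3538 ± 149 in wild-type livers. The log2 change was -0.55 ± 0.11 (SE) in Ncoa5+/-Tip30+/- livers, with a 95% interval of -0.78 to -0.31 and an adjusted p of 0.0191 (limma), or 68.5% of the wild-type level. In Ncoa5+/- livers it was -0.31 (adjusted p = 0.331) and in Tip30+/- livers -0.26 (adjusted p = 0.658), neither past the threshold. The 2-sided exact permutation p was 0.0286 in each of the 3 comparisons, the smallest that 4 mice against 4 can give.

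The Srebf2 difference was close in size within both ranges of mouse numbers. Between Ncoa5+/-Tip30+/- and wild-type livers it was -0.53 ± 0.14 (SE, limma adjusted p = 0.150) among higher numbers and -0.56 ± 0.14 (adjusted p = 0.0282) among lower numbers, with 2 mice on each side. Over 27 alternative settings Srebf2 passed in 24, with adjusted p of 0.000925 to 0.0883. The call was lost without Ncoa5+/-Tip30+/- 2 (-0.48, adjusted p = 0.0808), without wild type 1 (-0.52, adjusted p = 0.0682) and without the 4 livers low in Zhx2 (-0.55, adjusted p = 0.0883). Srebf2 was -0.23 in Ncoa5+/-Tip30+/- against Ncoa5+/- livers (adjusted p = 0.563) and -0.29 against Tip30+/- livers (adjusted p = 0.141). The interaction, in which both single-heterozygote means are taken from the sum of the double-heterozygote and wild-type means, was 0.02 with a 95% interval of -0.32 to 0.36, so that a departure from the sum of the 2 single differences was not detectable at this precision.

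**Figure D1:**
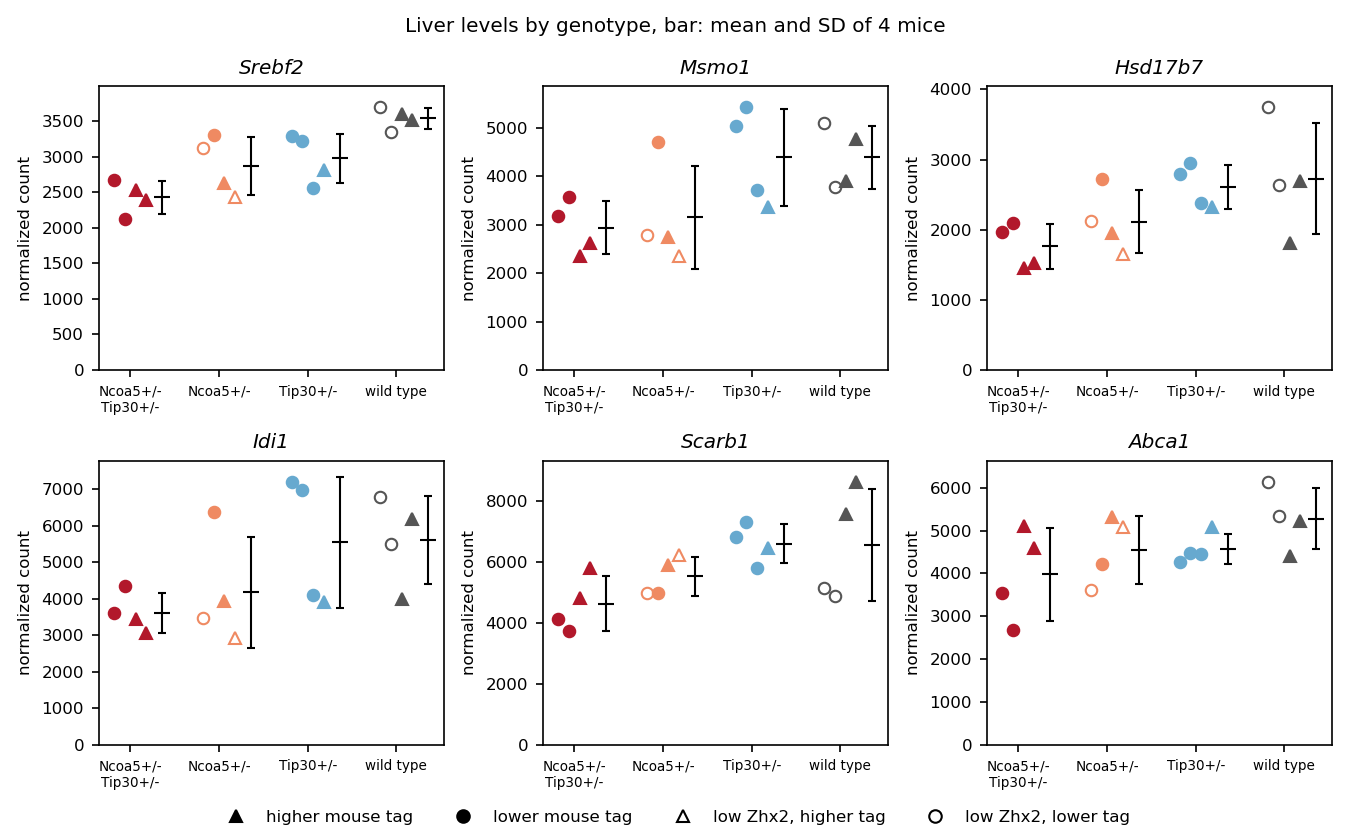
Normalized count (vertical axis, linear from 0) of Srebf2 and of the 5 genes with the next smallest unadjusted p, by genotype. Triangles are mice with higher numbers, circles mice with lower numbers, open symbols livers low in Zhx2, and bars the mean and SD of 4 mice. Srebf2 is at most 2676 in Ncoa5+/-Tip30+/- livers and at least 3345 in wild-type livers, while Hsd17b7, Idi1, Scarb1 and Abca1 overlap.

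The partners of SREBP2 gave no such difference between genotypes. Scap, the escort, stood at 4550, 4968, 7730 and 6089 in Ncoa5+/-Tip30+/- livers, 5184, 5530, 7324 and 6843 in Ncoa5+/- livers, 6998, 6792, 5769 and 6502 in Tip30+/- livers, and 5089, 4843, 7197 and 7473 in wild-type livers. Its log2 change in Ncoa5+/-Tip30+/- livers was -0.08 (95% interval -0.45 to 0.29), and the groups overlapped fully. Insig2, which holds Scap in the endoplasmic reticulum, stood at 3725, 4211, 3757 and 6378 in Ncoa5+/-Tip30+/- livers, 4058, 3746, 5143 and 5500 in Ncoa5+/- livers, 4507, 3579, 3828 and 4638 in Tip30+/- livers, and 3338, 3703, 5586 and 6251 in wild-type livers. Its change in Ncoa5+/-Tip30+/- livers was -0.05 (95% interval -0.49 to 0.39), and the groups overlapped.

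Insig1, a direct SREBP2 target, was the most variable of the 29 genes. It stood at 33134, 26492, 13888 and 11888 in Ncoa5+/-Tip30+/- livers, 37154, 37532, 18182 and 6562 in Ncoa5+/- livers, 26829, 16870, 28075 and 22202 in Tip30+/- livers, and 41094, 36689, 19207 and 27580 in wild-type livers. The highest of the 16 livers had 6.26 times the lowest. The groups overlapped: log2 changes of -0.62, -0.57 and -0.38 in Ncoa5+/-Tip30+/-, Ncoa5+/- and Tip30+/- livers had adjusted p of 0.499, 0.779 and 0.892 (limma). Mylip, a ubiquitin ligase that removes lipoprotein receptors, was low in all livers, between 142 and 342, and its change in Ncoa5+/-Tip30+/- livers was 0.28 (adjusted p = 0.535). That change was 0.78 ± 0.24 (SE, limma adjusted p = 0.191) among higher mouse numbers and -0.23 ± 0.24 (adjusted p = 0.564) among lower ones. The contrast between ranges was not tested.

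In Ncoa5+/-Tip30+/- against wild-type livers 21 of the 29 genes lay lower and 8 higher, with a median log2 change of -0.20 against -0.01 over all tested genes. In Ncoa5+/- livers the counts were again 21 and 8, with a median of -0.21 against -0.01, and in Tip30+/- livers 19 and 10, with -0.05 against 0.01. Without the 4 livers low in Zhx2, 18 lay lower and 11 higher in Ncoa5+/-Tip30+/- livers. In Ncoa5+/- livers 12 then lay lower and 17 higher, and in Tip30+/- livers 11 lower and 18 higher. The wild-type livers left in these fits are the 2 with higher numbers, while each other genotype keeps both ranges. Low Zhx2 and mouse number therefore cannot be told apart in these counts. More genes lay higher in Tip30+/- livers also without Tip30+/- 3 (17), Tip30+/- 4 (18) or wild type 1 (17). At an unadjusted p below 0.05, 6 of the 29 lay lower in Ncoa5+/-Tip30+/- livers, where 12.2% of all genes did, and 0 lay higher. These were Srebf2, Hsd17b7, Msmo1, Scarb1, Abca1 and Idi1. In Ncoa5+/- livers 2 did, Srebf2 and Msmo1, against 3.85% of all genes, and in Tip30+/- livers 1, Srebf2, against 3.87%. By adjusted p 0 of 29 passed in limma in either single heterozygote, where 0.557% and 0.0131% of all genes did, and edgeR and DESeq2 also called 0.

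**Figure D2:**
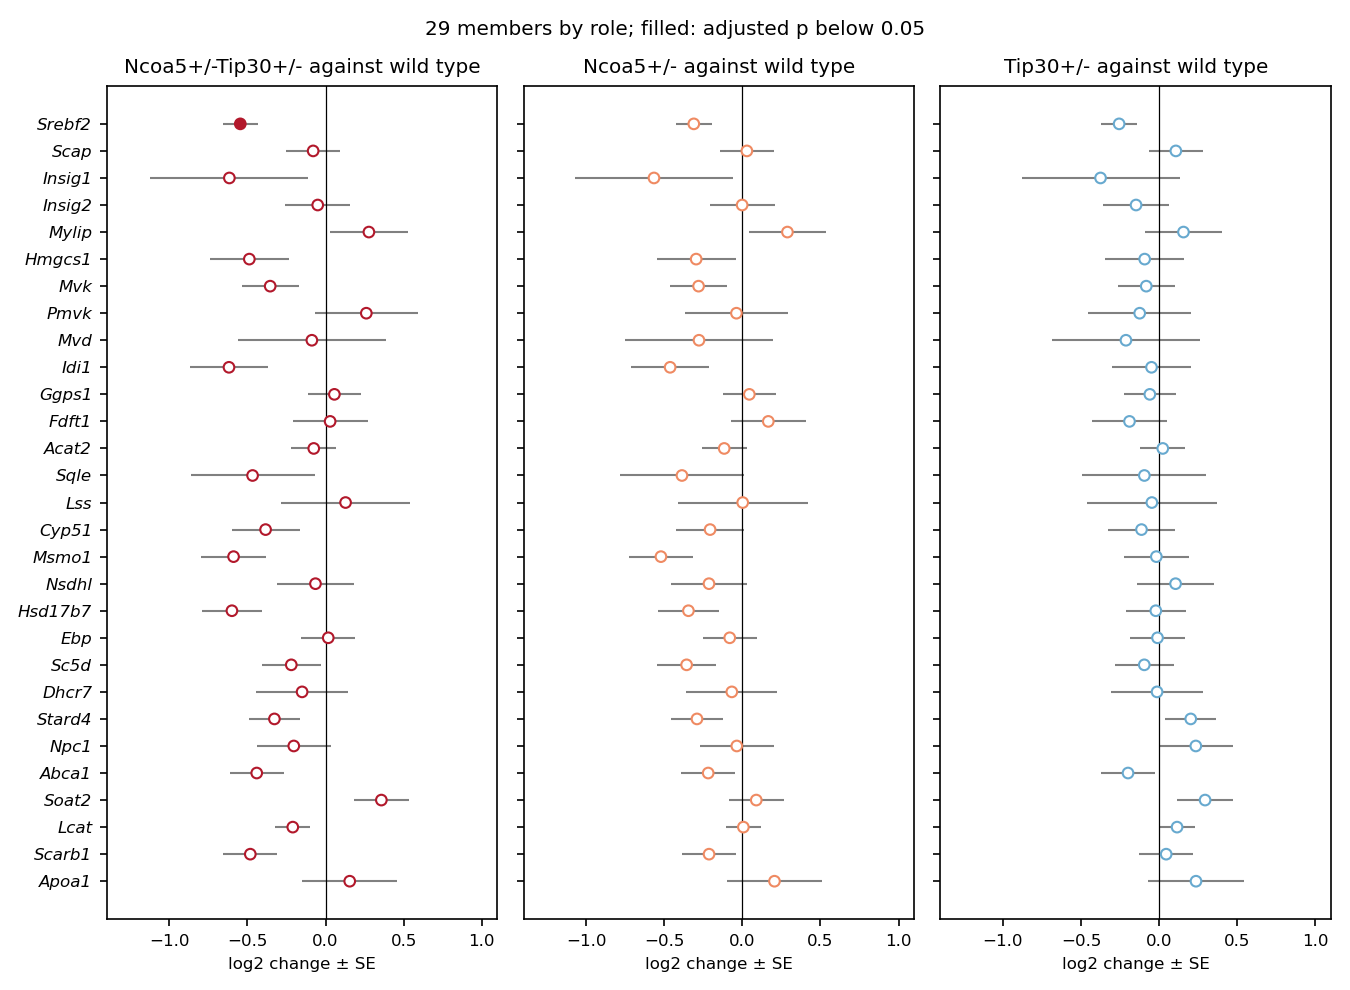
Log2 change ± SE (horizontal axis) of the 29 genes, in order of role from top to bottom, in Ncoa5+/-Tip30+/-, Ncoa5+/- and Tip30+/- livers against the same 4 wild-type livers. Filled points have an adjusted p below 0.05, and Srebf2 in Ncoa5+/-Tip30+/- livers, at -0.55, is the 1 filled point.

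The enzymes of the mevalonate and isoprenoid steps did not pass the test in any genotype: of 8, 5 lay lower and 3 higher in Ncoa5+/-Tip30+/- livers, with a median of -0.08. Idi1, which interconverts the isoprenoid building blocks, stood at 3605, 4358, 3450 and 3056 in Ncoa5+/-Tip30+/- livers, 3481, 6379, 3923 and 2928 in Ncoa5+/- livers, 7200, 6986, 4089 and 3902 in Tip30+/- livers, and 6787, 5501, 3985 and 6178 in wild-type livers. In Ncoa5+/-Tip30+/- livers 3 of 4 lay below every wild-type liver, and the log2 change was -0.62 ± 0.25 (SE, adjusted p = 0.167). Mvd, which makes the isoprenoid unit from mevalonate diphosphate, stood at 2832, 4123, 1932 and 1192 in Ncoa5+/-Tip30+/- livers, 2687, 4753, 1511 and 822 in Ncoa5+/- livers, 2769, 1920, 1918 and 1863 in Tip30+/- livers, and 3216, 2736, 1851 and 2105 in wild-type livers. Its 5.78-fold range over the 16 livers lay within genotypes, and its change in Ncoa5+/-Tip30+/- livers was -0.09 ± 0.47. Pmvk, the kinase before it, stood at 1986, 3270, 2314 and 1759 in Ncoa5+/-Tip30+/- livers, 2290, 3228, 1847 and 845 in Ncoa5+/- livers, 1756, 1392, 2052 and 1808 in Tip30+/- livers, and 2247, 2441, 1474 and 1586 in wild-type livers.

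The groups overlapped for Mvd and Pmvk. Hmgcs1, the HMG-CoA synthase, averaged lower in Ncoa5+/-Tip30+/- livers, at -0.49 (adjusted p = 0.268), as did Mvk, the mevalonate kinase, at -0.35 (adjusted p = 0.263). The remaining 3 were near 0: Acat2, the cytosolic thiolase, at -0.08, Ggps1, which makes geranylgeranyl diphosphate, at 0.06, and Fdft1, the squalene synthase, at 0.03. For Fdft1, 18.3% of exon bases also lie in Ctsb on the other strand, and the labels do not state that reads were counted by strand, so its level is uncertain; for Scap, Hmgcs1 and Idi1 these shares are 13.2%, 12.1% and 9.22%, each with a gene on the other strand.

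Of the 9 sterol ring enzymes 7 lay lower and 2 higher in Ncoa5+/-Tip30+/- livers, with a median of -0.22 and 0 past the adjusted threshold. Msmo1, a methylsterol monooxygenase that oxidizes methyl groups of the ring, stood at 3178, 3581, 2365 and 2621 in Ncoa5+/-Tip30+/- livers, 2794, 4714, 2748 and 2350 in Ncoa5+/- livers, 5049, 5434, 3722 and 3363 in Tip30+/- livers, and 5106, 3782, 3912 and 4780 in wild-type livers. All Ncoa5+/-Tip30+/- livers lay below all wild-type livers, as did 3 of 4 Ncoa5+/- livers. Its log2 change was -0.59 ± 0.21 (SE, adjusted p = 0.113) in Ncoa5+/-Tip30+/- livers, -0.52 (adjusted p = 0.376) in Ncoa5+/- livers and -0.02 in Tip30+/- livers. Msmo1 and Srebf2 were the 2 of 29 genes whose Ncoa5+/-Tip30+/- livers all lay below all wild-type livers, where 6.0% of all genes did; in Ncoa5+/- livers and in Tip30+/- livers this held for Srebf2 alone, against 2.42% and 2.44% of all genes.

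Hsd17b7, a reductase of the sterol ring, stood at 1973, 2099, 1452 and 1526 in Ncoa5+/-Tip30+/- livers, 2122, 2717, 1954 and 1649 in Ncoa5+/- livers, 2794, 2956, 2378 and 2321 in Tip30+/- livers, and 3748, 2635, 1814 and 2700 in wild-type livers. Wild type 3 fell within the Ncoa5+/-Tip30+/- range and the other 3 lay above it. The log2 change was -0.60 ± 0.19 (SE, adjusted p = 0.0927), -0.57 (adjusted p = 0.248) among higher mouse numbers and -0.63 (adjusted p = 0.0639) among lower ones. With the number range in the model it passed (adjusted p = 0.0239), as it did in DESeq2 (adjusted p = 0.0428) and without wild type 3 (-0.78, adjusted p = 0.0239). It passed in these 3 of 27 alternatives, over which the adjusted p ran up to 0.396.

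Sqle, the squalene epoxidase, stood at 2285, 2567, 1643 and 1321 in Ncoa5+/-Tip30+/- livers, 1774, 4787, 1794 and 1045 in Ncoa5+/- livers, 3322, 3256, 1719 and 1923 in Tip30+/- livers, and 3708, 2578, 1970 and 2472 in wild-type livers. Lss, the lanosterol synthase that closes the ring, stood at 3602, 4340, 2648 and 1573 in Ncoa5+/-Tip30+/- livers, 3465, 4810, 2164 and 1272 in Ncoa5+/- livers, 3000, 2087, 2826 and 2264 in Tip30+/- livers, and 4182, 3227, 1640 and 2060 in wild-type livers. Both overlapped between all genotypes, with changes of -0.47 ± 0.40 and 0.13 ± 0.42 (SE) in Ncoa5+/-Tip30+/- livers. Cyp51, the lanosterol demethylase, was at -0.38 (adjusted p = 0.312), Sc5d, a sterol desaturase, at -0.22, Dhcr7, the last reductase of 1 branch, at -0.15, Nsdhl, a sterol dehydrogenase, at -0.06, and Ebp, a sterol isomerase, at 0.02.

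Tm7sf2, a sterol reductase, has no row under its symbol. The row with the identifier that GENCODE M21 gives to Tm7sf2 carries the symbol of its neighbour Vps51 in the deposited table, so it enters no count of levels here. The promoter of Tm7sf2 was found by symbol and is in the promoter counts. The row labelled Vps51 stood at 4198 to 6361 in Ncoa5+/-Tip30+/- livers, 3886 to 5421 in Ncoa5+/- livers, 5917 to 7518 in Tip30+/- livers and 4884 to 7194 in wild-type livers.

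Among the 7 transport genes, 5 lay lower and 2 higher in Ncoa5+/-Tip30+/- livers, and 0 passed. Scarb1, the receptor through which liver takes cholesterol from high-density lipoprotein, stood at 4127, 3742, 4815 and 5806 in Ncoa5+/-Tip30+/- livers, 4963, 4972, 5910 and 6233 in Ncoa5+/- livers, 6810, 7305, 5795 and 6449 in Tip30+/- livers, and 5139, 4895, 7562 and 8628 in wild-type livers. The log2 change was -0.48 ± 0.17 (SE, adjusted p = 0.121), and the groups overlapped over both number ranges. Within ranges they did not: among higher numbers 4815 and 5806 in Ncoa5+/-Tip30+/- livers stood against 7562 and 8628 in wild-type livers (-0.61, limma adjusted p = 0.0953), and among lower numbers 4127 and 3742 in Ncoa5+/-Tip30+/- livers against 5139 and 4895 in wild-type livers (-0.35, adjusted p = 0.111). Scarb1 passed with the number range in the model (adjusted p = 0.0405) and without the 4 livers low in Zhx2 (-0.83, adjusted p = 0.0399), but in none of its other alternatives, with adjusted p up to 0.342. Without those 4 livers, the wild-type livers are the 2 with higher numbers, against Ncoa5+/-Tip30+/- livers of both ranges. Scarb1 also lay higher in livers with higher numbers (0.37), so genotype and number range cannot be told apart in the -0.83.

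Abca1, which exports cholesterol to nascent high-density lipoprotein, stood at 3545, 2674, 5109 and 4597 in Ncoa5+/-Tip30+/- livers, 3604, 4219, 5318 and 5092 in Ncoa5+/- livers, 4277, 4483, 4449 and 5093 in Tip30+/- livers, and 6143, 5335, 4414 and 5220 in wild-type livers. Its log2 change of -0.44 (adjusted p = 0.151) was not alike in both ranges of mouse numbers, a contrast that was not tested. It was 0.01 ± 0.15 (SE, adjusted p = 0.974) among higher numbers and -0.89 ± 0.15 among lower numbers (adjusted p = 0.00652), the range in which both wild-type livers are low in Zhx2. Stard4, a sterol carrier, was at -0.33, Lcat, which esterifies cholesterol in plasma, at -0.21, Npc1, which lets cholesterol out of lysosomes, at -0.20, Apoa1, the main protein of high-density lipoprotein, at 0.15, and Soat2, which esterifies cholesterol inside hepatocytes, at 0.36 (adjusted p = 0.249). Per kilobase of exon, Apoa1 had the highest level of the 29 genes in wild-type livers, at 152416 normalized counts, followed by Insig1 at 10069 and Lcat at 10050, and Ggps1 the lowest, at 25.8.

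The double heterozygote was also set against each single heterozygote. Against Ncoa5+/- livers 0 of 29 genes passed in limma, edgeR or DESeq2, where 0.0197% of all genes passed in limma, and 0 had an unadjusted p below 0.05, where 8.93% of all genes did. Against Tip30+/- livers 0 passed in limma, where 3.07% of all genes did, 0 in edgeR and 1, Stard4, in DESeq2. With the range of mouse numbers in the model Scarb1 (-0.62, adjusted p = 0.0119) and Hsd17b7 (-0.48, adjusted p = 0.0453) passed; 2 of 4 Ncoa5+/-Tip30+/- and 1 of 4 Tip30+/- livers have higher numbers. Hsd17b7 also passed with the compared groups alone (adjusted p = 0.0451), and Scarb1 without Ncoa5+/-Tip30+/- 4 (adjusted p = 0.0463). At an unadjusted p below 0.05, 7 lay lower in Ncoa5+/-Tip30+/- than in Tip30+/- livers (Stard4, Scarb1, Hsd17b7, Lcat, Msmo1, Srebf2 and Idi1) and 0 higher, where 13.4% of all genes lay lower. For Stard4, Ncoa5+/-Tip30+/- livers at 3014 to 3885 lay below Tip30+/- livers at 4802 to 5322, with a log2 difference of -0.53 ± 0.16 (SE, adjusted p = 0.0788). Lcat lay at 10793 to 11997 in Ncoa5+/-Tip30+/- livers and 13757 to 15168 in Tip30+/- livers (-0.32 ± 0.11 SE, adjusted p = 0.103). With Hsd17b7 these were 3 of 29 genes whose groups did not overlap, where 9.05% of all genes did so in that direction. The sum of hepatocyte markers also lay lower in all Ncoa5+/-Tip30+/- livers than in any Tip30+/- liver, and its part in these differences was not tested. For the interaction 0 of 29 passed in limma, edgeR or DESeq2 and 0 had an unadjusted p below 0.05, where 0.00% and 4.26% of all genes did. The comparisons with wild type share their 4 wild-type livers, and those with the double heterozygote share its 4.

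Other genes of the system were counted in 3 lists. Of 12 tested genes of SREBP control and sterol-enzyme turnover, 11 of side branches and partner enzymes, and 12 of uptake, trafficking and lipoprotein handling, 0 passed in limma against wild type in any genotype; in Ncoa5+/-Tip30+/- livers 3, 5 and 4 of them had an unadjusted p below 0.05, where 22.0% of all genes did. In Ncoa5+/- livers 0 of each list did, against 10.2% of all genes, and in Tip30+/- livers 1, 2 and 2, against 7.34%. For the interaction 5 of the 12 control genes did and 0 of the other lists, against 4.26% of all genes, and 0 passed in limma. Their medians in Ncoa5+/-Tip30+/- against wild-type livers were -0.19, -0.30 and -0.04, against -0.01 over all genes. Against Tip30+/- livers 4 fell, 3 of control and 1 of side branches, where 1.47% of all genes did: March6 (-0.65 ± 0.15 SE, adjusted p = 0.0291) and Rnf139 (adjusted p = 0.0322), both ubiquitin ligases of the endoplasmic reticulum, Erlin2 (adjusted p = 0.0422), a partner of sterol-regulated degradation, and Erg28 (adjusted p = 0.0304), a scaffold of sterol enzymes.

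Livers of 1 genotype differed widely in these genes. Ncoa5+/- 4 was the lowest of the 16 livers for 15 of the 29 genes, among them Insig1, Mvk, Pmvk, Mvd, Idi1, Sqle, Lss, Cyp51, Msmo1 and Dhcr7. Ncoa5+/- 2 was the highest for 5, namely Mvd, Sqle, Lss, Cyp51 and Dhcr7. Without Ncoa5+/- 4 the median change of the 29 genes in Ncoa5+/- livers was -0.05, in place of -0.21. Without the 4 livers low in Zhx2 together it was 0.040, a change of direction that leaving out no 1 liver gave. The wild-type livers are then the 2 with higher numbers, so low Zhx2 and mouse number cannot be told apart in this change. Ncoa5+/-Tip30+/- 2 was the lowest for 5 genes, Srebf2, Npc1, Abca1, Lcat and Scarb1, and the highest for Pmvk and Ebp. Such counts of lowest and highest livers were not made over all genes, so they do not set the listed genes apart from others.

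**Figure D3:**
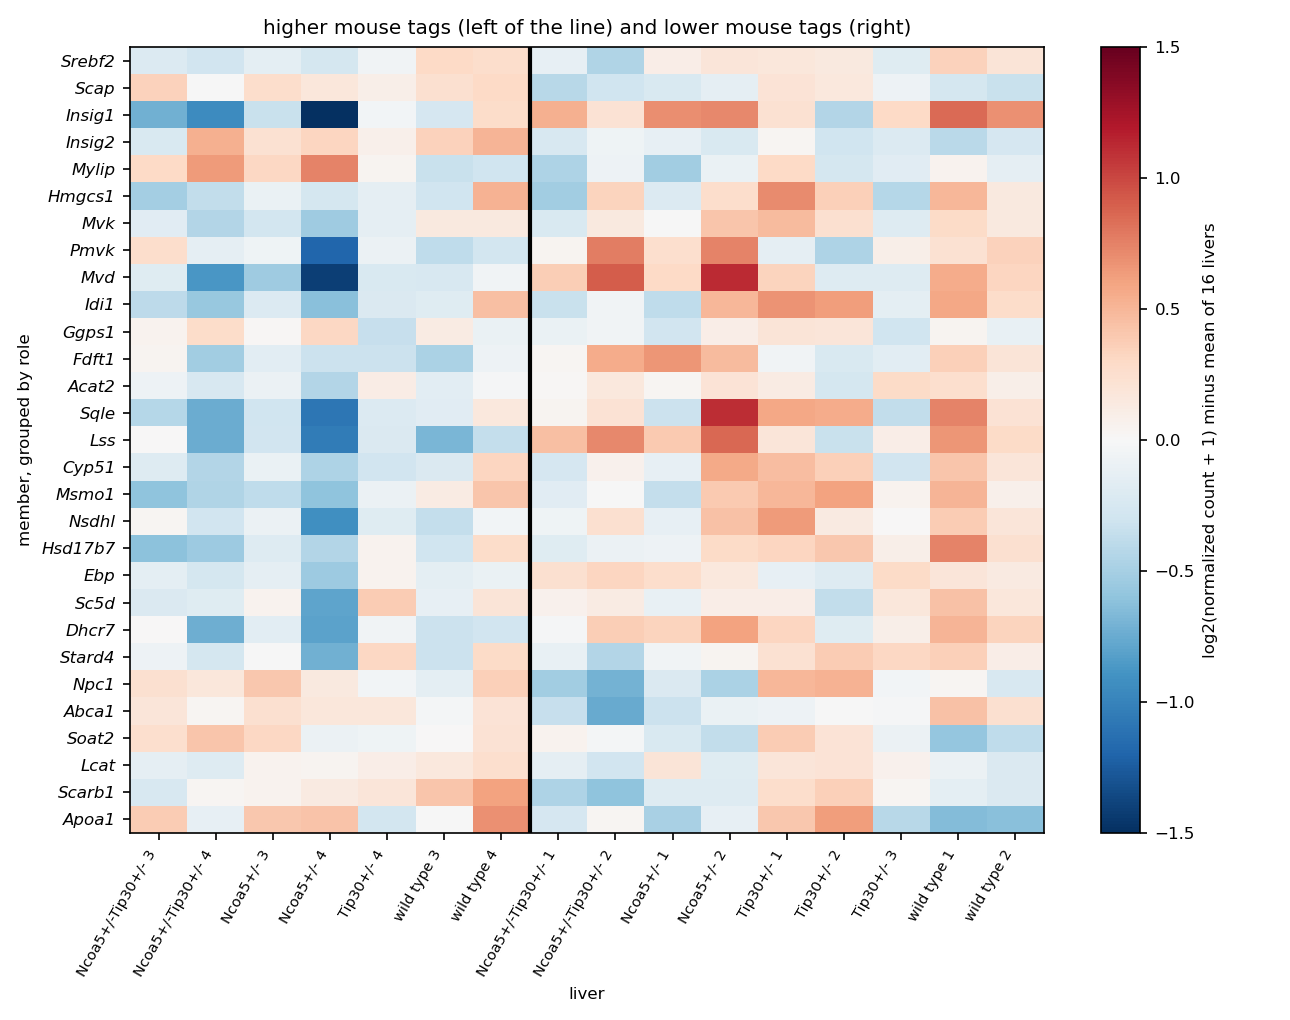
Log2 level of each of the 29 genes (rows, by role) in each of the 16 livers (columns), as the difference from that gene's mean over the 16. Livers with higher mouse numbers are left of the line, and colours are limited at 1.5 either way. Most synthesis genes and Insig1 are below their mean to the left of the line, and Ncoa5+/- 4 is the lowest column for 15 genes.

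Livers with higher mouse numbers had less messenger RNA of several cholesterol synthesis genes, and 9 of the 29 genes passed. At most 1 passed in a genotype comparison, but those between 2 genotypes set 4 livers against 4 and left the number range out of the model. With the range in the model 3 passed for Ncoa5+/-Tip30+/- against wild-type livers. The counts are therefore not alike. The comparison by mouse number was added after the data had been seen, and the division at 4300 was taken with earlier results in view. With genotype kept in the model, 6 of these 9 lay lower and 3 higher, where 2.65% of all genes passed, 1.23% lower and 1.42% higher. At an unadjusted p below 0.05 it was 22 of 29, where 19.2% of all genes were. All 9 sterol ring enzymes lay lower (3 passed), 7 of 8 mevalonate and isoprenoid enzymes lay lower (2 passed), and 6 of 7 transport genes lay higher (1 passed). The median log2 difference of the 29 genes was -0.28, against 0.00 over all genes.

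Insig1 fell, ranging from 6562 to 27580 (median 18182) in the 7 livers with higher numbers and from 16870 to 41094 (median 33134) in the 9 with lower numbers. The log2 difference was -1.01 ± 0.25 (SE, adjusted p = 0.0463, limma), a call lost in 13 of the 16 fits that left out 1 liver. Lss fell, with 1272 to 2648 (median 2060) in livers with higher numbers and 2087 to 4810 (median 3465) in those with lower numbers, a difference of -0.91 ± 0.17 (adjusted p = 0.0165). The higher numbers lay below the lower numbers for Insig1 and Lss in Ncoa5+/-Tip30+/-, Ncoa5+/- and wild-type livers and overlapped in Tip30+/- livers. Mvd fell, with 822 to 2105 (median 1851) in livers with higher numbers and 1918 to 4753 (median 2769) in those with lower numbers, a difference of -0.96 ± 0.23 (adjusted p = 0.0419), and its higher-numbered livers lay below the lower-numbered ones in all 4 genotypes. Hsd17b7 (-0.41, adjusted p = 0.0411) fell too, as did Fdft1 (-0.54, adjusted p = 0.0193) and Dhcr7 (-0.62, adjusted p = 0.0324), 2 genes chosen for naming here after their values were seen.

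Scap rose, with 6089 to 7730 (median 7197) in livers with higher numbers and 4550 to 6998 (median 5184) in those with lower numbers (0.40, adjusted p = 0.0236). Insig2 rose, with 3757 to 6378 (median 5500) in livers with higher numbers and 3338 to 4507 (median 3746) in those with lower numbers, at 0.45 (adjusted p = 0.035), so that the 2 Insig genes moved in opposite directions. Scarb1 rose as well, at 0.37 (adjusted p = 0.0422). Srebf2 differed little, at -0.10 (adjusted p = 0.553).

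**Figure D4:**
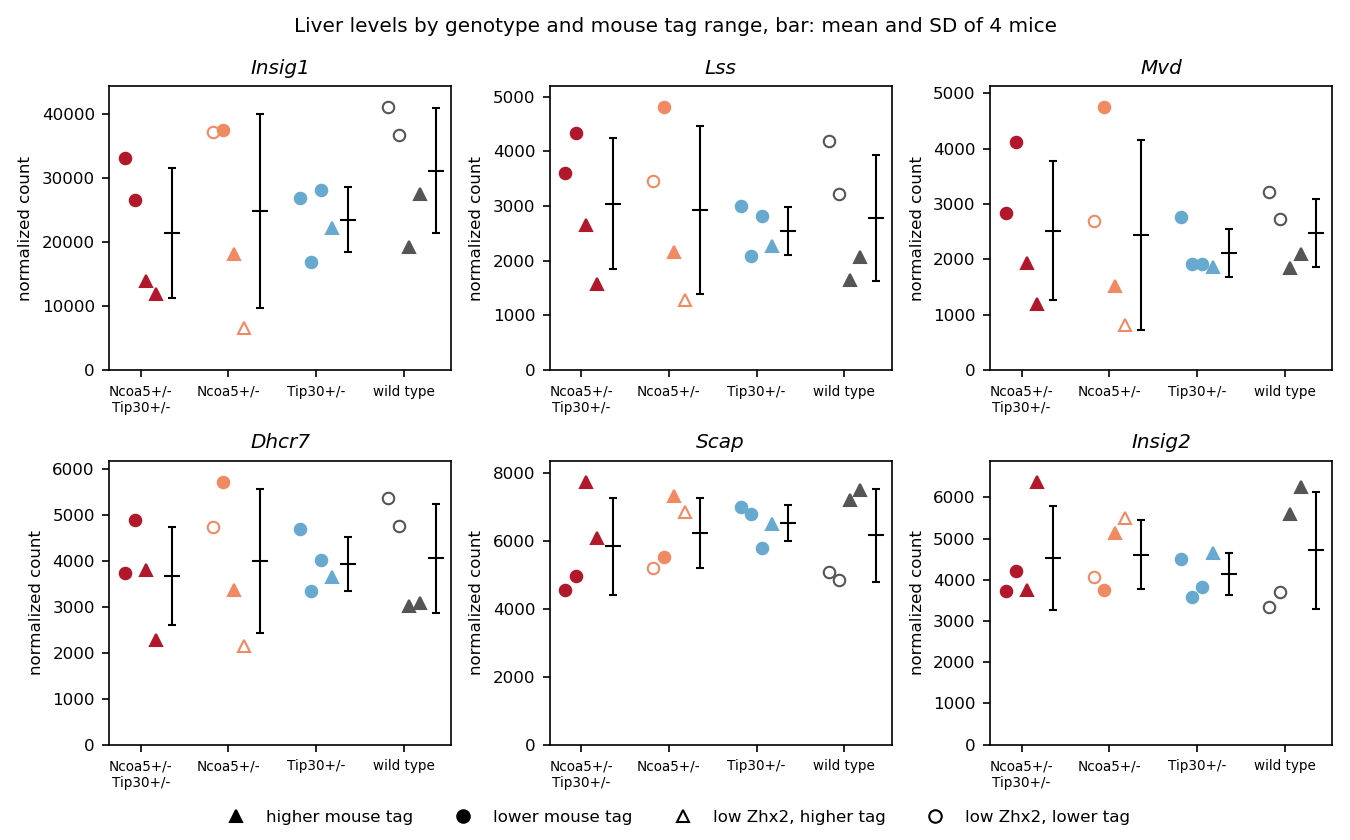
Normalized count (vertical axis, linear from 0) of Insig1, Lss, Mvd, Dhcr7, Scap and Insig2 by genotype, with triangles for higher and circles for lower mouse numbers, open symbols for livers low in Zhx2, and bars for the mean and SD of 4 mice. In Ncoa5+/-Tip30+/-, Ncoa5+/- and wild-type livers the triangles lie below the circles for Insig1, Lss and Mvd and above them for Scap.

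**Figure D5:**
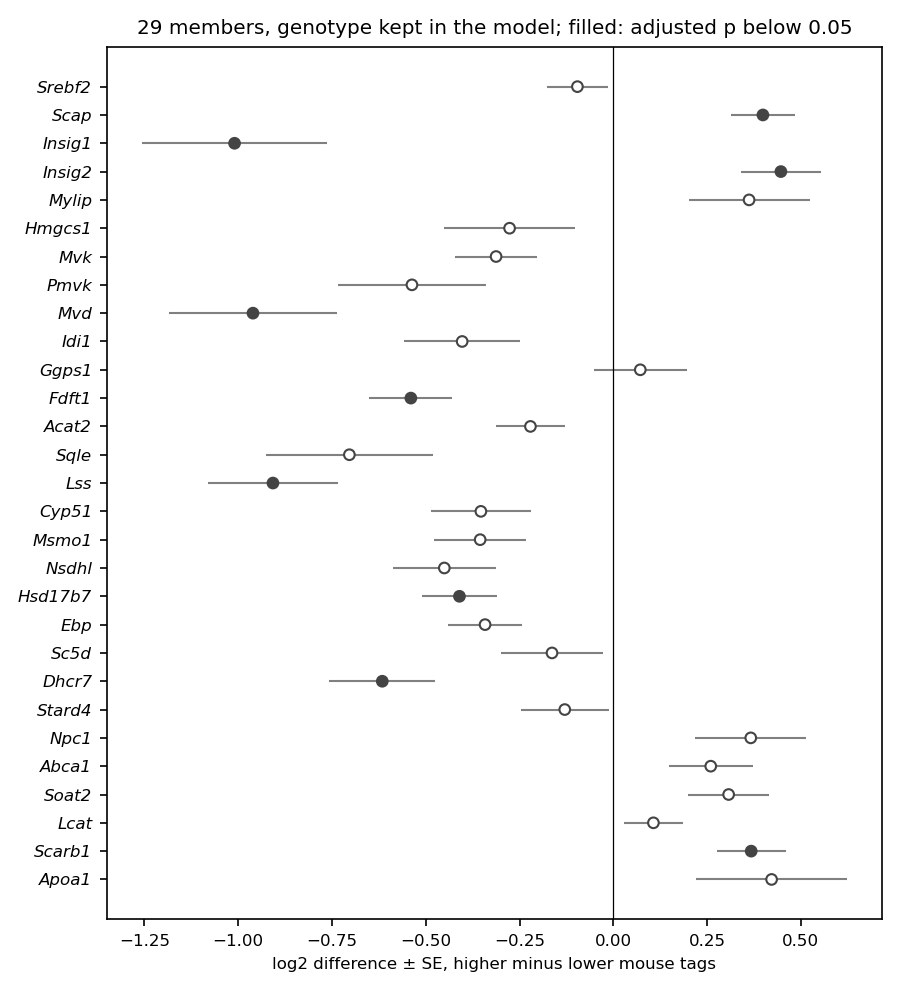
Log2 difference ± SE (horizontal axis) between livers with higher and lower mouse numbers for the 29 genes in order of role, with genotype kept in the model. Filled points have an adjusted p below 0.05: 6 lie below 0 and 3 above it.

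How many genes passed depended on single livers and on those low in Zhx2. With each of the 16 livers left out in turn, 1 to 12 of the 29 passed, and Lss passed in all 16 fits. Fdft1 passed in 14 of the 16, Scap in 12, Dhcr7 in 8, Hsd17b7 in 6, Insig2 in 5, and Insig1, Mvd and Scarb1 in 3 each. With no filter on low genes Insig1 (adjusted p = 0.121) and Mvd (adjusted p = 0.0995) did not pass. Without the 4 livers low in Zhx2 0 of 29 passed in limma, where 15 genes of all tested did. There 17 of the 29 had an unadjusted p below 0.05, and the median difference was -0.26. The share of all genes below 0.05 in that fit is not given here, so the 17 does not set the list apart. With log2 Zhx2 in the model 11 passed, Scarb1 (adjusted p = 0.0571) not among them. The share of all genes that passed in that fit is not given here either, so the 11 does not set the list apart.

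Livers low in Zhx2 were also set beside the others of their genotype. In Ncoa5+/- mice the 2 livers low in Zhx2 lay below the other 2 for 7 genes, above them for 0, and overlapped for 22, with a median log2 difference of -0.30. In wild-type mice the livers low in Zhx2 lay above the others for 12 genes, below for 6 and overlapped for 11, with a median of 0.25. These wild-type livers are also the 2 with lower mouse numbers, so the 2 features cannot be told apart there. In Ncoa5+/- mice 1 of the 2 livers low in Zhx2 lies in each number range. For Sqle the values were 1774 and 1045 in the Ncoa5+/- livers low in Zhx2 against 4787 and 1794 in the others, and 3708 and 2578 in the wild-type livers low in Zhx2 against 1970 and 2472 in the others. No gene lay on the same side in both genotypes. The matching shares over all genes were not counted, so these counts only describe the listed genes. These livers were picked by a measured value, so no test was made.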

How the data were processed

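Per the submitters' processing notes, the authors trimmed reads with Trimmomatic 0.36, aligned them to GRCm38 using STAR 2.6.0c, and used DESeq2 1.28.1 for normalization. Sources used here do not name the gene counter, annotation release or strand setting. Values in the deposited table are a signal, read counts over a size factor for each library, for 30199 genes and 16 libraries, and 0 sample columns were left unmapped. For every library 100% of values were, within a tolerance of 1e-04, whole multiples of the value of 1 read, which gave back whole reads for the count tests and the depths.

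The 29 genes all passed the filter of a mean of at least 10 normalized counts, with which 15263 genes were tested. The main test was limma 3.58.1 (trend, robust, R 4.3.3) on log2 of the value plus a pseudocount of 1, with 4 group means over 16 livers, 2-sided, and Benjamini-Hochberg adjustment over all genes of a comparison. Fold changes are on this scale, which understates changes of low genes. An adjusted p below 0.05 counts as passed. The comparison of mouse numbers adds the number range to the genotypes. Intervals are 95% and come from limma. Groups do not overlap when every liver of 1 lies beyond every liver of the other. Each library is 1 mouse per the labels. Alternatives were edgeR 4.0.16 and DESeq2 1.42.0 on recovered reads, pseudocounts of 5 and 0.5, filters at 50 and at nothing, TMM scaling, the compared groups alone, the number range or log2 Zhx2 as a covariate, each library left out, and the 4 livers low in Zhx2 left out. The limma fit was also run on simulated counts with changes set in Ncoa5+/-Tip30+/- livers. The simulation held no differences by mouse number or Zhx2, so it could not check the tests against these.

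The 30 genes, their roles, the pathway and marker lists and the tests were chosen with earlier results of these data known. Values in every liver are given for genes with an adjusted p below 0.05 in a genotype comparison, for Srebf2, Scap, Insig1 and Insig2, for the 6 genes with the smallest unadjusted p against wild type, and for the 6 with the widest spread over 16 livers. Positions and exon lengths come from GENCODE M21, and promoters from RefSeq on GRCm38.p6, with 24 genes matched by symbol.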

Additional observations from a re-analysis of the deposited data

Results flagged for a closer look

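Among 60 groups of 4 livers, 4 for each of the 15 genes examined, 1 held a liver far from the rest. Mvd in Tip30+/- 1 stood at 2769, above 3 livers between 1863 and 1920, with a gap of 0.936 of the group's range. Chance flags about 1 in 20 such groups.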

How the results depend on the processing

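Of 2318 alternative values for single genes, 2220 stayed on the same side of the threshold, 89 no longer passed and 9 newly passed. Most of the 2220 passed in neither fit, and all 89 belong to results that passed in the main fit. Of these, Srebf2 in Ncoa5+/-Tip30+/- against wild-type livers passed in 24 of 27 alternatives. For higher against lower mouse numbers Lss passed in 24 of 25, Fdft1 in 22, Scap in 20 and Dhcr7 in 16. Hsd17b7 passed in 14, Insig2 in 13, and Insig1, Mvd and Scarb1 in 10 each. Among values that passed in the main or the alternative fit, 0 reversed direction. Direction was not scored where neither fit passed, and it could change there. Insig1 in Ncoa5+/- against wild-type livers ran from -0.86 to 0.18. For Ncoa5+/-Tip30+/- against wild-type livers, where 407 genes and 1 of the 29 passed, DESeq2 gave 1044 genes and 2 of the 29, the compared groups alone 107 genes, leaving out the livers low in Zhx2 121, log2 Zhx2 as a covariate 253, and the number range as a covariate 697 genes and 3 of the 29 (Srebf2, Hsd17b7 and Scarb1). With each library left out it was 88 to 846 genes, 0 to 2 of the 29, and a median of -0.25 to -0.15. For Ncoa5+/- against wild type (85 genes), DESeq2 gave 257, the groups alone 56 and leaving out the livers low in Zhx2 29, with a median of the 29 of 0.040 in place of -0.21; leaving out each library gave 45 to 90 genes and medians of -0.29 to -0.05. For Tip30+/- against wild type (2 genes), DESeq2 gave 43 and leaving out the livers low in Zhx2 6; leaving out each library gave 1 to 8 genes and medians of -0.11 to 0.05. For Ncoa5+/-Tip30+/- against Ncoa5+/- (3 genes), DESeq2 gave 32, the groups alone 9 and leaving out the livers low in Zhx2 1; leaving out each library gave 1 to 10 genes and medians of -0.21 to 0.04. Against Tip30+/- (469 genes), DESeq2 gave 1118 genes and 1 of the 29 (Stard4), the groups alone 2 of the 29 (Hsd17b7 and Stard4), leaving out the livers low in Zhx2 1 (Stard4), and the number range as a covariate 1344 genes and 2 of the 29 (Hsd17b7 and Scarb1); leaving out each library gave 107 to 764 genes, 0 to 1 of the 29 and medians of -0.24 to -0.08. For the interaction DESeq2 gave 1 gene, leaving out the livers low in Zhx2 gave a median of -0.29, and leaving out each library 0 genes and medians of -0.16 to 0.11. For higher against lower mouse numbers (405 genes, 9 of the 29), DESeq2 gave 948 genes, leaving out the livers low in Zhx2 15 genes and 0 of the 29, and leaving out each library 136 to 1007 genes, 1 to 12 of the 29 and medians of -0.34 to -0.20. The causes of these changes were not tested. No paired analysis was possible because the labels number single mice and give the genotypes no shared replicate numbers. With 4 mice a group, the 95% interval of Insig1 in Ncoa5+/-Tip30+/- livers, -1.70 to 0.47, shows how little the genotype comparisons resolve for the most variable genes.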
